A study of Mus musculus with 8 samples.

Results

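Cholesterol is built from acetyl units by a chain of enzymes, and 7 genes of that chain were followed here in whole mouse eyes: Hmgcs1, Idi1, Fdps, Fdft1, Sqle, Lss and Dhcr7. The members were fixed by name, and every probe set (a group of short oligonucleotides that together report 1 transcript) whose platform gene symbol was 1 of these 7 names was taken. All 7 genes were found, out of 12393 genes with a probe set of a single symbol, and they were read by 17 probe sets. Of these, 14 lay above the limit for low signals (a mean scaled signal of 0.0406) and were tested, and 3 did not.

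The RNA came from eyes called wild type or KPAW in the labels, at 5 days or 1 month of age, which makes 4 groups of 2 Affymetrix arrays (I and II) each. What KPAW stands for is not said in the labels, which give C57Bl6 as the strain of the wild type at 5 days and name no strain, allele or treatment for the other groups. All 8 samples were total RNA prepared in the same way. The labels do not say whether the arrays of a group came from separate animals, so each p-value measures only the spread between arrays, which may be technical.

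The pathway begins with the mevalonate steps, in which Hmgcs1 makes HMG-CoA, the precursor of mevalonate. Idi1 and Fdps then make and join isoprene units, Fdft1 pairs 2 farnesyl units into squalene, Sqle and Lss oxidize and close squalene into the first sterol, and later enzymes ending with Dhcr7 trim that sterol into cholesterol. The genes are classic targets of the SREBP transcription factors, which are released when cell sterol is low. In the eye, cholesterol is made locally and also taken up from blood, and it is needed for membranes of photoreceptors, myelin and surface epithelium.

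Signals are given after each array was scaled to a common trimmed mean, with no unit of concentration, and can be compared between arrays for 1 probe set but not between probe sets. Fold changes are on the scale of log2(scaled signal + 0.0211), which understates changes of dim probe sets. A change was called when the Benjamini-Hochberg adjusted p of limma, taken over all 15838 probe sets tested, lay under 0.05. Lens fibre genes, markers of the labelled tissue, summed to between 27.1 and 41.5 on all arrays. The KPAW I array at 1 month stood apart: its 9 rod genes summed to 0.878, against 27.3 and 33.6 in wild type and 29.9 on KPAW II. The correlation between the 2 arrays of a group over all tested probe sets was 0.927 in this group and 0.946 to 0.969 in the others. Sex-linked transcripts also split the arrays. Xist, the RNA of the inactive X chromosome, read 2.95 and 3.64 in wild type at 5 days and 3.13 on KPAW II at 5 days, and 0.0523 to 0.0861 on the other 5 arrays, where the Y-linked genes Eif2s3y and Kdm5d were higher than on any array with high Xist.

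The cholesterol enzymes were higher in the 1-month eye than in the 5-day eye. The 1-month arrays all had low Xist and the 5-day arrays, save KPAW I, had high Xist, so age was largely confounded with sex. Over both kinds of eye, 8 of the 14 tested probe sets rose and none fell, and these 8 belong to 6 of the 7 genes, all but Sqle. By the brightest probe set of each gene 5 of 7 rose, since Hmgcs1 was called only on 2 less bright probe sets. The rises ran from 1.30-fold for Hmgcs1 to 1.76-fold for Lss. Between KPAW and wild type, no probe set of the 7 genes was called at either age. The average of the age changes in the 2 kinds of eye was a contrast added after the data were seen. Among all probe sets tested, 15.1% were called higher at 1 month in the same contrast.

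**Figure D1:**
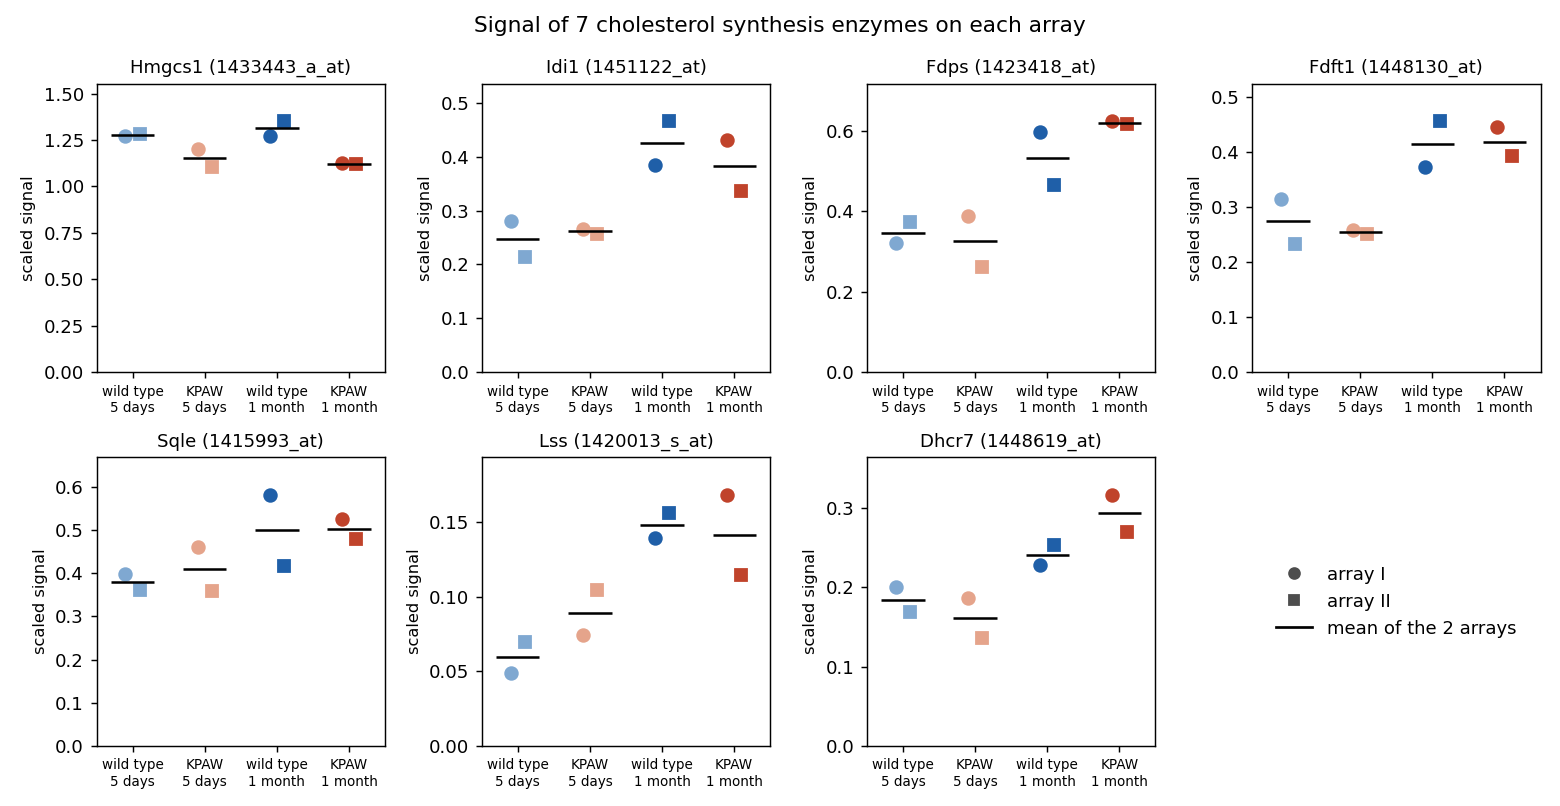
Scaled signal of the brightest probe set of each of the 7 enzymes (y axis, no unit, starting at 0) on the 8 arrays, by group; circles are array I, squares array II, and bars the mean of the 2 arrays. For Idi1, Fdps, Fdft1, Lss and Dhcr7 all 4 arrays at 1 month lie above all 4 at 5 days; for Hmgcs1 and Sqle the ages overlap.

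RefSeq promoter sequences were matched by symbol for 4 of the 7 genes, with 6 start sites, on mouse build GRCm38.p6; Sqle, Fdft1 and Fdps had no entry. The 250 bases before the start are shown for each of these 4 genes, so that their letters can be set beside their signals: Idi1, Lss and Dhcr7 were called on their brightest probe set, and Hmgcs1 only on less bright ones. Capitals mark a sterol regulatory element (TCACNCCAC), a CCAAT box (CCAAT), a GC box (GGGCGG) and an E box (CACGTG), each searched on both strands, so that CCAAT also shows as ATTGG and GGGCGG as CCGCCC. No 2 of these motifs share letters in the sequences shown. The Hmgcs1 sequence is chr13:119690101-119690350, that of Idi1 chr13:8885356-8885605, that of Lss chr10:76531355-76531604 and that of the most downstream of 3 Dhcr7 starts chr7:143829964-143830213, all on the plus strand and written 5′ to 3′.
Hmgcs1: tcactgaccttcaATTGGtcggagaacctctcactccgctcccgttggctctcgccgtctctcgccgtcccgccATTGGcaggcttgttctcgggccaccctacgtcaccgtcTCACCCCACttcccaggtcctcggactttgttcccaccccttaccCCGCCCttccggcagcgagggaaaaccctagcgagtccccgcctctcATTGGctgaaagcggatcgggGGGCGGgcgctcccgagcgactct
Idi1: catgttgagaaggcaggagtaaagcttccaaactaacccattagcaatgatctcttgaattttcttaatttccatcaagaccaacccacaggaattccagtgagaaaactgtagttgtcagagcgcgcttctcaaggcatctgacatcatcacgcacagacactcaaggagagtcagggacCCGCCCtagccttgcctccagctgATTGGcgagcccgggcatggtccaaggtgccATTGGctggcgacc
Lss: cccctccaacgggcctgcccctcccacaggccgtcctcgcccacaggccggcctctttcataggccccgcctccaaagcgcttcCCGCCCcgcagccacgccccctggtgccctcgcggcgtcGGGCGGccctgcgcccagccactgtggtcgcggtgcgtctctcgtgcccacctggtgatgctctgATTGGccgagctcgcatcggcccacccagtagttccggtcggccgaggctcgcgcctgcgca
Dhcr7: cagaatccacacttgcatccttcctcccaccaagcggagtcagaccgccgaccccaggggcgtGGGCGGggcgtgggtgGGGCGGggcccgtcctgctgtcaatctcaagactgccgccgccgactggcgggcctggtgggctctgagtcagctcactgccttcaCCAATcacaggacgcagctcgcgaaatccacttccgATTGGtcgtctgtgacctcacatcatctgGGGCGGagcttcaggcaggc
The sterol regulatory element was found in 1 of the 4 genes, Hmgcs1, and in 1.05% of all 32851 promoters of that length. A CCAAT box was found in all 4 genes, with 3 in Hmgcs1, 2 in Idi1, 1 in Lss and 2 in the Dhcr7 sequence shown, which is 4 of the 6 start sites, and in 33.8% of all promoters. A GC box was found in 5 of the 6 start sites and in 32.7% of all promoters. The E box was found only before the middle start of Dhcr7, which is not shown, and in 6.02% of all promoters. These matches describe letters and are not evidence of binding.

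Hmgcs1 (HMG-CoA synthase 1) has 4 probe sets, and they did not behave alike. The brightest, 1433443_a_at, read 1.27 and 1.28 in wild type and 1.20 and 1.11 in KPAW at 5 days, and 1.27 and 1.35 in wild type and 1.12 and 1.12 in KPAW at 1 month. The ages overlapped on this probe set, with a log2 change over both kinds of eye of 0.00 (SE 0.08, limma adjusted p = 0.99).

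A second probe set of Hmgcs1, 1433444_at, read 0.478 and 0.482 in wild type and 0.445 and 0.565 in KPAW at 5 days, against 0.751 and 0.688 in wild type and 0.635 and 0.531 in KPAW at 1 month. Both wild-type arrays at 1 month were above all 5-day arrays, while the KPAW ages overlapped. It rose 1.30-fold over both kinds of eye (log2 0.38, SE 0.11, limma adjusted p = 0.0337). The probe set 1433446_at rose by a like amount (log2 0.38, SE 0.11, limma adjusted p = 0.0372), and 1433445_x_at had a log2 change of 0.37 that was not called (limma adjusted p = 0.0671). The letters x and s in a probe set's name mark, in the maker's naming, probes that can also bind other transcripts, so such values are less sure. Of the 2 called Hmgcs1 probe sets, each lost its call when any 1 of 6 arrays was left out, and kept it without KPAW II at either age. Without KPAW II at 5 days or at 1 month, 1433445_x_at was called as well.

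Idi1, which interconverts the 2 isomers of the isoprene unit, read 0.282 and 0.215 in wild type and 0.267 and 0.257 in KPAW at 5 days on probe set 1451122_at. At 1 month it read 0.386 and 0.466 in wild type and 0.431 and 0.337 in KPAW. All 4 arrays at 1 month lay above all 4 at 5 days, and the rise was 1.54-fold (log2 0.62, SE 0.13, limma adjusted p = 0.00957). The other Idi1 probe set, 1423804_a_at, was dim, with signals from 0.0438 to 0.0881, and its ages overlapped.

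Fdps, which makes farnesyl diphosphate, read 0.320 and 0.373 in wild type and 0.387 and 0.262 in KPAW at 5 days on probe set 1423418_at. At 1 month it read 0.596 and 0.466 in wild type and 0.623 and 0.617 in KPAW. The ages did not overlap, and the rise was 1.68-fold (log2 0.75, SE 0.14, limma adjusted p = 0.00652). A second Fdps probe set, 1438150_at, was listed at the lowest deposited value, 0.01, on all 8 arrays and was not tested.

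Fdft1 (squalene synthase) read 0.315 and 0.234 in wild type and 0.259 and 0.252 in KPAW at 5 days on probe set 1448130_at, and 0.374 and 0.457 in wild type and 0.447 and 0.392 in KPAW at 1 month. The ages did not overlap, and the rise was 1.54-fold (log2 0.62, SE 0.13, limma adjusted p = 0.00808). The probe set 1438322_x_at rose 1.59-fold (log2 0.67, SE 0.14, limma adjusted p = 0.00967), also without overlap between the ages. The Fdft1 probe set 1438918_at was dim at 0.0543 to 0.0840 and had a log2 change of -0.12 (SE 0.13, limma adjusted p = 0.518). The probe set 1438919_x_at, read 0.00955 to 0.0534 and lay below the limit for testing.

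Sqle (squalene epoxidase) read 0.399 and 0.362 in wild type and 0.461 and 0.360 in KPAW at 5 days, and 0.581 and 0.417 in wild type and 0.526 and 0.479 in KPAW at 1 month on its only probe set, 1415993_at. Within each kind of eye both arrays at 1 month were above both at 5 days, but KPAW I at 5 days was above wild type II at 1 month. The log2 change over both kinds of eye was 0.32 (SE 0.14, limma adjusted p = 0.106) and was not called.

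Lss (lanosterol synthase), which closes the sterol rings, read 0.0490 and 0.0697 in wild type and 0.0741 and 0.105 in KPAW at 5 days on probe set 1420013_s_at. At 1 month it read 0.140 and 0.156 in wild type and 0.168 and 0.115 in KPAW. The ages did not overlap, although the highest value at 5 days, 0.105, lay near the lowest at 1 month, 0.115, both in KPAW. The rise was 1.76-fold (log2 0.82, SE 0.16, limma adjusted p = 0.00774). The name of this probe set carries the letter s, so its values are less sure. A second Lss probe set without that letter, 1426913_at, lay between 0.0538 and 0.0776 on all arrays. It had a log2 change of 0.03 (SE 0.12) and was not called. The third, 1420014_at, read 0.00955 to 0.0349 and lay below the limit for testing.

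Dhcr7, the reductase of the last step, read 0.200 and 0.169 in wild type and 0.187 and 0.136 in KPAW at 5 days on its only probe set, 1448619_at. At 1 month it read 0.228 and 0.254 in wild type and 0.317 and 0.270 in KPAW, which were the highest values of the 8. The rise was 1.49-fold over both kinds of eye (log2 0.57, SE 0.13, limma adjusted p = 0.0122) and lost its call when wild type II at 5 days was left out (limma adjusted p = 0.0502).

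The rises of Fdft1, Idi1, Fdps and Lss kept their call when any single array was left out. The number of called probe sets was 8 under quantile normalization, 7 under scaling to the median and 9 on the values as deposited. Leaving out 1 array gave 5 to 9 called probe sets, the lowest without wild type II at 5 days. By probe set, the 14 tested had a median log2 change of 0.38, against -0.02 over all probe sets tested. By gene, with the brightest probe set of each, the median of the 7 enzymes was 0.62. In all, 6 of the 14 tested probe sets had all 4 arrays at 1 month above all 4 at 5 days, and 14.9% of all probe sets did.

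**Figure D2:**
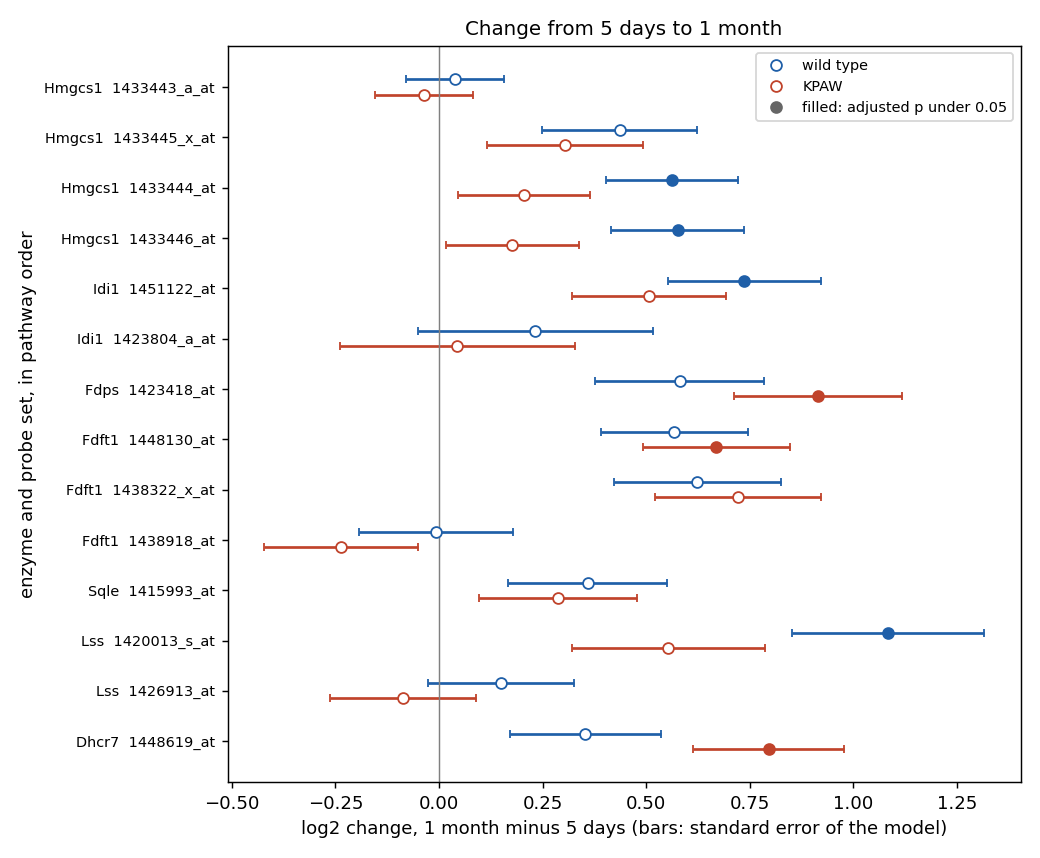
Log2 change from 5 days to 1 month (x axis) for each of the 14 tested probe sets (y axis, in pathway order), in wild type (blue) and KPAW (red); bars are the model's standard error and filled points have an adjusted p under 0.05. Most points lie to the right of 0, with 4 filled in wild type and 3 in KPAW.

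Taken separately, the wild-type eyes gave 4 called probe sets, all higher at 1 month, and 13 of 14 positive changes. Lss 1420013_s_at changed most, at 2.12-fold (log2 1.08, SE 0.23, limma adjusted p = 0.0175). Idi1 followed at 1.67-fold (log2 0.74, SE 0.19, limma adjusted p = 0.0309), and Hmgcs1 1433444_at and 1433446_at rose 1.48-fold and 1.49-fold (limma adjusted p = 0.0451 and 0.0433). Fdft1 and Fdps had log2 changes of 0.57 and 0.58 that were not called (limma adjusted p = 0.0614 and 0.0867). Among all probe sets 8.73% were called higher in wild type. Both arrays at 1 month lay above both at 5 days for 11 of the 14 probe sets, and for 32.5% of all probe sets. Without wild type I at 5 days, wild type I at 1 month or wild type II at 1 month no enzyme probe set was called, and without wild type II at 5 days 1 was.

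In KPAW eyes 3 probe sets were called, all higher at 1 month, and 11 of 14 changes were positive. Fdps rose 1.88-fold (log2 0.91, SE 0.20, limma adjusted p = 0.0240), Dhcr7 1.74-fold (log2 0.80, SE 0.18, limma adjusted p = 0.0265) and Fdft1 1448130_at 1.59-fold (log2 0.67, SE 0.18, limma adjusted p = 0.0427). Among all probe sets 6.76% were called higher in KPAW. Both arrays at 1 month lay above both at 5 days for 7 of the 14 probe sets, and for 25.3% of all probe sets, while the dim Fdft1 1438918_at was separated the other way. No enzyme was called without KPAW II at 5 days or KPAW I at 1 month, on the values as deposited, or with the 2 KPAW groups fitted alone. Different genes passed in the 2 kinds of eye, but the test of the difference between the 2 age changes called none of the 14, with a lowest limma adjusted p of 0.809 and 0 with an unadjusted p under 0.05. In this test 0% of all probe sets were called. The test takes in the 5-day arrays, of which only KPAW I had low Xist, and the part of sex in it was not tested. The differences ran from -0.53 for Lss 1420013_s_at to 0.44 for Dhcr7 on the log2 scale, with 95% limits reaching -1.29 and 1.04.

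Markers of several cell types also moved with age on the same arrays. Over both kinds of eye, 15.1% of all probe sets were called higher at 1 month and 16.8% lower. Whole eyes mix many cells, so a change in the share of a cell type and a change of RNA per cell cannot be told apart. The 9 rod genes summed to 7.07 to 7.65 at 5 days. At 1 month they summed to 27.3 and 33.6 in wild type and to 0.878 and 29.9 in KPAW. In wild type 8 of 8 tested rod genes had positive changes with age (median log2 2.38), with 1 called. The 5 corneal epithelium genes summed to 3.50 to 3.62 at 5 days and to 6.12 to 20.2 at 1 month, with 4 of 5 called higher. The pigment epithelium sum of 5 genes went from 3.79 to 5.03 up to 8.95 to 9.81, with 5 of 5 called higher, and the Mueller glia sum from 7.68 to 8.94 up to 10.9 to 13.9, with 4 of 8 called higher and 1 lower. The 9 keratinizing epithelium genes had positive changes in 9 of 9 over both kinds of eye, with Krt5 and Sprr3 called. In wild type alone 6 of the 9 had negative changes (median log2 -1.54), while in KPAW all 9 were positive (median 3.18). Their sum at 5 days was 6.40 and 12.2 on array I of wild type and KPAW and 1.48 and 1.03 on array II, and at 1 month 5.65 and 5.58 in wild type and 33.9 and 17.2 in KPAW. The mean of the standardized profiles of the 7 enzymes was higher on array I than on array II at 5 days, at -0.49 against -0.77 in wild type and -0.44 against -1.05 in KPAW. By probe set this was mixed, with 8 of the 14 higher on array I in wild type and 8 in KPAW. Among all probe sets 46.8% and 44.6% were higher on array I. The 7 myelin genes summed to 0.942 to 1.61 at 5 days and 3.14 to 3.67 at 1 month, with Mog at the lowest value on all arrays; of 4 tested genes Mal was called higher and Cnp lower. That rise was carried by Mal, since the sum without it was 0.660 to 0.774 at 5 days and 0.480 to 0.596 at 1 month. The fall of this remaining sum was in turn carried by Cnp, at 0.422 to 0.497 at 5 days and 0.152 to 0.242 at 1 month. Of the 4 tested myelin genes, 2 had positive and 2 had negative changes over both kinds of eye. Genes of the sebaceous and meibomian glands, which make sterol-rich secretions, summed to 0.562 to 1.99 at 5 days and 0.538 to 0.941 at 1 month, with Pparg at the lowest value on all arrays. Genes of dividing cells went from a sum of 3.80 to 4.20 down to 1.66 to 2.09, with 9 of 9 called lower. The part of these cell types in the rise of the enzymes was not tested.

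The arrays at 1 month also differed among themselves. On KPAW I, the 8 tested rod genes lay at a median log2 difference of -4.75 from the wild-type mean (range -6.57 to -3.38), while the 7 enzymes lay at a median of 0.11 (range -0.22 to 0.37). On KPAW II the medians were -0.04 for rod genes and -0.07 for the enzymes. On KPAW I other markers differed from the wild-type mean as well, with medians of 5.48 for keratinizing epithelium, -1.30 for corneal epithelium and 0.70 for dividing cells. These values compare arrays of 1 age, and the part of rods in the change with age was not tested.

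**Figure D3:**
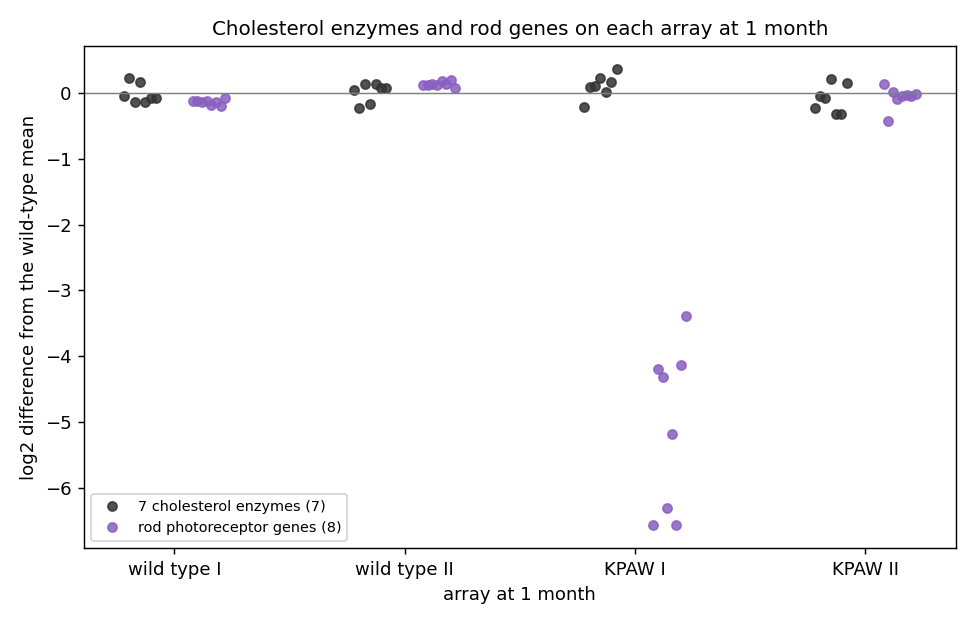
Log2 difference from the wild-type mean at 1 month (y axis) on each 1-month array (x axis), for the 7 enzymes (grey) and 8 rod photoreceptor genes (purple); each point is 1 gene. On KPAW I the rod genes lie at -6.57 to -3.38 while the enzymes stay between -0.22 and 0.37.

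Sex-linked transcripts moved with age in wild type, where both 5-day arrays had high Xist and both 1-month arrays had low Xist, so that age and sex of the eyes cannot be told apart in that contrast. KPAW I at 5 days was the 1 young array with low Xist, and all 4 arrays at 1 month had low Xist. In the contrast over both kinds of eye, age and sex were therefore separated by that 1 array alone. The part of sex in that contrast was not tested. On KPAW I at 5 days, Idi1, Fdps, Fdft1, Lss and Dhcr7 (5 of the 7 enzymes) lay below all 4 arrays at 1 month. So did 27.0% of all tested probe sets. These 5 genes were already described with all 4 arrays at 1 month above all 4 at 5 days. Their place on this array follows from that and is not a separate result. Over all 7 enzymes the mean at 1 month was above this array by a median of log2 0.54, and over all probe sets by -0.02.

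The comparison of KPAW with wild type asked whether the enzymes differed between the 2 kinds of eye of 1 age. At 5 days KPAW I had low Xist, while KPAW II and both wild-type arrays had high Xist. Sex was thus not balanced at that age, and its part was not tested. At 5 days, 0 of 14 probe sets were called by limma and 0 had an unadjusted p under 0.05; over all probe sets 0% were called, and 378 had an unadjusted p under 0.05. The log2 differences ran from -0.20 for Fdft1 1438322_x_at to 0.46 for Lss 1420013_s_at (SE 0.23, limma adjusted p = 1.00), with 95% limits reaching -0.66 and 0.99. The 2 kinds of eye did not overlap for 3 of the 14 probe sets, namely Lss 1420013_s_at and Idi1 1423804_a_at, higher in KPAW, and Hmgcs1 1433443_a_at, lower. Among all probe sets 33.5% did not overlap.

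At 1 month, 0 of 14 were called and 0 had an unadjusted p under 0.05, while 0.0253% of all probe sets were called (4 probe sets, of H2-D1, Ppp1r3c, Rptn and Tmem87a) and 1100 had an unadjusted p under 0.05. The log2 differences ran from -0.30 for Hmgcs1 1433446_at to 0.26 for Dhcr7 (SE 0.18, limma adjusted p = 0.707), with 95% limits from -0.70 to 0.70. Differences within these limits could not be told from 0 with 2 arrays a group. Dhcr7 and Fdps lay higher on both KPAW arrays, with Fdps at a log2 difference of 0.23 (SE 0.20, limma adjusted p = 0.766). Hmgcs1 lay lower on both KPAW arrays for 3 of its 4 probe sets, with log2 differences of -0.22, -0.30 and -0.30 (limma adjusted p = 0.675 for each). The dim probe sets Fdft1 1438918_at and Lss 1426913_at were also lower on both KPAW arrays. In all 7 of 14 probe sets did not overlap, against 36.5% of all probe sets.

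**Figure D4:**
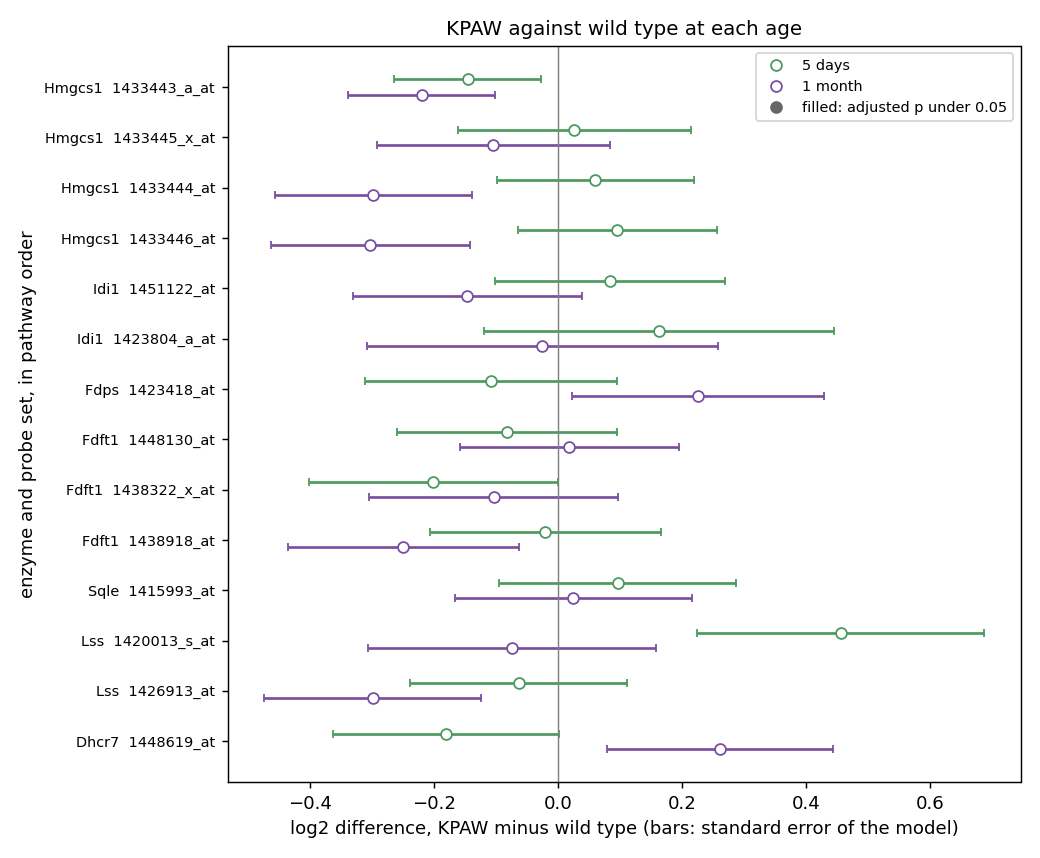
Log2 difference of KPAW minus wild type (x axis) at 5 days (green) and 1 month (purple) for each of the 14 tested probe sets (y axis, in pathway order); bars are the model's standard error. No point is filled, so none had an adjusted p under 0.05, and the points at 1 month lie between -0.30 and 0.26.

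The 2 KPAW arrays at 1 month differed in one direction. KPAW I was above KPAW II for 13 of the 14 enzyme probe sets, by a median of 0.23 on the log2 scale, while 53.1% of all probe sets were higher on KPAW I. In the other groups array I was above array II for 4 to 8 of the 14 probe sets. The keratinizing epithelium genes, summing to 33.9 on KPAW I and 17.2 on KPAW II against 5.65 and 5.58 in wild type, and the rod genes also differed between these 2 arrays, and their part in the enzyme difference was not tested.

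The rest of the synthesis pathway was read from a list of 14 other genes, of which 11 had a probe set and all 11 were tested. Over both kinds of eye 5 of the 11 rose with age and 1 fell, where 15.1% of all probe sets were called higher and 16.8% lower, and their median log2 change was 0.38, against -0.02 over all. The largest rise was that of Sc5d, the lathosterol 5-desaturase that acts just before Dhcr7, which read 0.0946 to 0.137 at 5 days and 0.273 to 0.368 at 1 month. It rose 2.78-fold (log2 1.48, SE 0.14, limma adjusted p = 0.000319) and was called in wild type and in KPAW alone. Msmo1, a sterol C4-methyl oxidase, rose by log2 1.00 (SE 0.17, limma adjusted p = 0.00406), and its highest value, 0.986, was on KPAW I at 1 month, against 0.533 to 0.583 on the other 1-month arrays. Nsdhl, which acts with Msmo1, rose 1.47-fold (limma adjusted p = 0.00894), the isomerase Ebp 1.46-fold (limma adjusted p = 0.00405) and the demethylase Cyp51 1.43-fold (limma adjusted p = 0.0248).

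The fall was that of Lbr, a sterol reductase that is also a receptor of the inner nuclear membrane, with a log2 change of -0.37 (SE 0.11, limma adjusted p = 0.0386). Tm7sf2, the other reductase of that step, and Hsd17b7 had log2 changes of 0.18 and 0.38 that were not called (limma adjusted p = 0.239 and 0.118). The early enzymes Mvk, Pmvk and Mvd, which turn mevalonate into the first isoprene unit, had log2 changes of -0.16, -0.03 and -0.13 and were not called (limma adjusted p = 0.588, 0.900 and 0.497). Between KPAW and wild type limma called 0 of the 11 at either age, and 1, Mvk at 1 month, had an unadjusted p under 0.05. The Mvk difference at 1 month was log2 -0.77 (SE 0.28, limma adjusted p = 0.675), where both KPAW arrays were below both wild-type arrays.

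**Figure D5:**
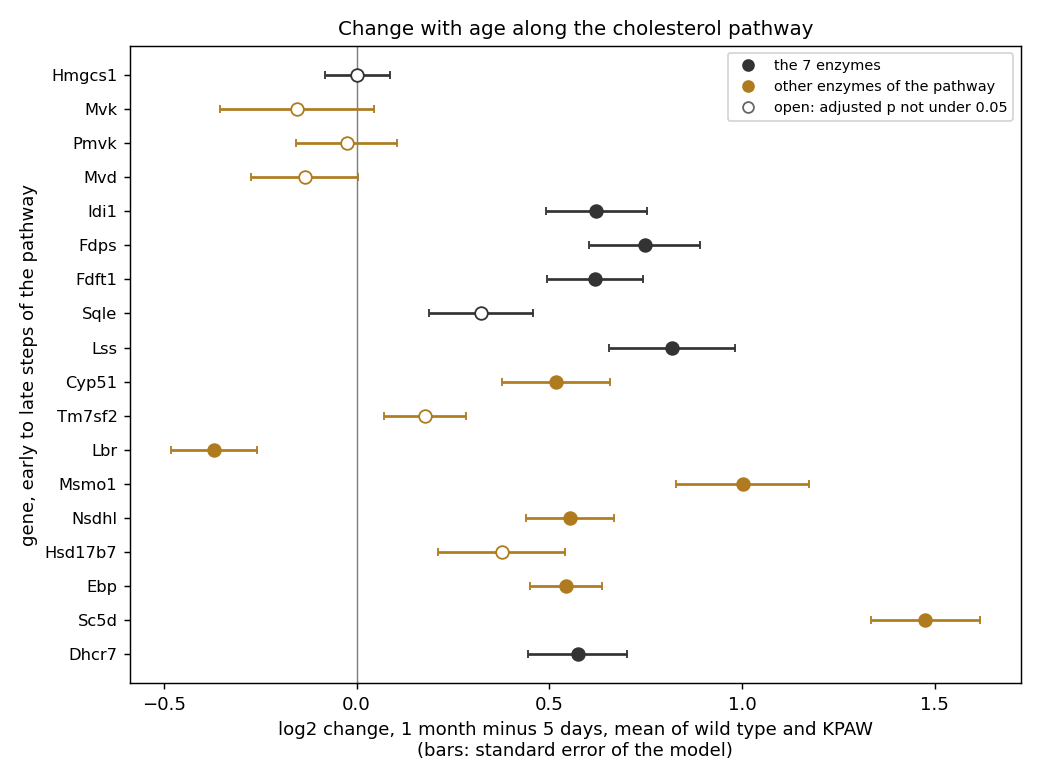
Log2 change from 5 days to 1 month, averaged over wild type and KPAW (x axis), for the brightest probe set of each gene of the pathway (y axis, early to late steps); grey points are the 7 enzymes, brown points other enzymes, filled when the adjusted p is under 0.05, and bars are the model's standard error. From Idi1 to Dhcr7 most points are filled and to the right of 0, while Hmgcs1, Mvk, Pmvk and Mvd lie near 0 and Lbr to the left.

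Of the mevalonate side branches, which lead isoprene units to products other than cholesterol, 4 genes were tested (Ggps1, Dhdds, Fnta and Fntb) and over both kinds of eye 0 were called by limma and 0 had an unadjusted p under 0.05, with a median log2 change of -0.04. Of 6 tested genes that control SREBP, 1 was called higher, against 15.1% of all probe sets. This was Insig2, which holds the SREBP complex in the endoplasmic reticulum and rose 1.48-fold (log2 0.57, SE 0.14, limma adjusted p = 0.0186). Srebf2, which encodes the factor most tied to cholesterol genes, read 0.326 to 0.456 at 5 days and 0.340 to 0.502 at 1 month, with a log2 change of 0.09 (SE 0.11, limma adjusted p = 0.577). Srebf1 had a log2 change of 0.14 (SE 0.13, limma adjusted p = 0.443). Transcript level does not report how much of these factors is cleaved and active.

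Sterol uptake and handling was mixed, with 4 of 12 tested genes higher at 1 month and 1 lower over both kinds of eye, against 15.1% and 16.8% of all probe sets. Abca1, which exports cholesterol to lipoproteins, fell from 0.336 to 0.419 at 5 days down to 0.180 to 0.232 at 1 month (log2 -0.75, SE 0.11, limma adjusted p = 0.00238). Cyp27a1, a sterol hydroxylase, rose 2.65-fold (limma adjusted p = 0.00507), Apoe, the lipid carrier, 1.74-fold (limma adjusted p = 0.00974) and Mylip, a ubiquitin ligase that limits sterol uptake, 1.46-fold (limma adjusted p = 0.0159). Npc1, which moves cholesterol out of lysosomes, was the other gene called higher (log2 0.44, limma adjusted p = 0.0498) and was named after its value was seen. In fatty acid synthesis 3 of 11 tested genes rose, against 15.1% of all probe sets: Elovl1 and Elovl6, which lengthen fatty acids, and Me1, which supplies NADPH. Me1 rose 1.60-fold (limma adjusted p = 0.00271), while Fasn, the fatty acid synthase, had a log2 change of -0.29 (limma adjusted p = 0.131).

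Over the 8 arrays the brightest probe sets of the 7 enzymes gave 21 pairs, whose Pearson correlation of log2 signal ran from -0.16 to 0.96 with a median of 0.67. The correlation with the mean of the 7 standardized profiles, which each enzyme enters itself, was 0.94 for Idi1 and Fdft1, 0.91 for Dhcr7, 0.89 for Fdps, 0.79 for Sqle, 0.78 for Lss and 0.17 for Hmgcs1. The points share the 8 arrays and the difference between ages. Ranked by likeness to that mean profile among 9492 genes, the 8 highest outside the pathway lists were Evpl, Ppp1r2, Zfp185, Net1, Tapbp, Actn4, Klf4 and Cldn23, with correlations of 0.985 to 0.993. Sc5d came seventh in the whole ranking, at 0.987. Evpl read 0.0728 to 0.197 at 5 days and 0.503 to 0.725 at 1 month, with its highest value on KPAW I at 1 month. Fdps, Lss and Dhcr7 also read highest there, while Hmgcs1, Sqle, Fdft1 and Idi1 read highest on a wild-type array at 1 month.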

How the data were processed

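The table deposited by the authors holds a signal for every probe set on every array, per the file headers; the software and normalization that the authors used are not given in the sources used here. No deposited value lay below 0.01, and 10.0% to 14.9% of an array's probe sets were listed there. Trimmed means (2% off each end) differed 1.78 times between arrays, so each array was scaled to their median. Of 22690 probe sets 64 controls were left out; those with a mean scaled signal above the 30th percentile were kept. The pseudocount was the 20th percentile of positive values. A limma model (limma 3.58.1, R 4.3.3) with 4 group means and a variance trend took in all 8 arrays, leaving 4 residual degrees of freedom. It was tested on simulated data with independent normal noise of the same spread in every group. The arrays here may differ in spread between groups, which that simulation did not cover. Probe sets were named from the platform annotation: 20380 had 1 gene symbol, 691 several and 1555 none, and 20351 matched RefSeq by Entrez number with no symbol changed. All probe sets of the 7 enzymes were described; of the other lists every gene of cholesterol synthesis was named, and of each further list up to 4 genes with the largest change plus Srebf1 and Srebf2, each by its brightest single-symbol probe set. The members and lists were chosen with earlier results of these data known. Quantile, median and no scaling, other pseudocounts and filters, a model without the trend, groups fitted alone, the numeral as a block and leaving out each array were alternatives. The contrast over both kinds of eye was added after the data were seen. Arrays have no depth; their number limits the precision. Npc1, Mal, Cnp, the sex-linked genes and the genes called between KPAW and wild type were named after their values were seen. Some genes of the lists are not reported here.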

Additional observations from a re-analysis of the deposited data

Results flagged for a closer look

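Of 44 tested genes of the pathway lists outside the 7 enzymes, 5 (11.4%) had effects that pointed opposite ways on every array, as did 8.86% of all probe sets tested. Acly, Acss2 and Me1 were higher on both KPAW arrays than on both wild-type arrays at 5 days and lower at 1 month, with a change of the KPAW difference of log2 -0.38 (SE 0.17), -0.48 (SE 0.19) and -0.45 (SE 0.21). Srebf2 and Fnta were lower at 1 month on both wild-type arrays and higher on both KPAW arrays, with a change of 0.61 (SE 0.23) and 0.25 (SE 0.17). None passed limma's test of that change over all probe sets (adjusted p = 0.809 for Acly, Acss2, Me1 and Srebf2, and 0.816 for Fnta). Srebf2 read 0.456 and 0.419 in wild type and 0.326 and 0.344 in KPAW at 5 days, and 0.412 and 0.340 in wild type and 0.502 and 0.400 in KPAW at 1 month. Of the 14 enzyme probe sets 0 had opposite effects of this kind.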

How the results depend on the processing

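For KPAW against wild type, and for the change of that difference with age, no enzyme probe set was called under any alternative run. With age over both kinds of eye, the enzyme count stayed between 7 and 9 under the alternatives that kept all arrays, and ran from 5 to 9 when 1 array was left out. The separate age contrasts were less stable. In wild type the 4 called enzyme probe sets became 2 with median scaling, 2 without the variance trend, 9 on the values as deposited and 0 to 5 when 1 array was left out. In KPAW the 3 became 0 as deposited, 0 with the 2 groups fitted alone and 0 to 3 when 1 array was left out. Signs of changes that were called under no setting were not compared. Over all probe sets, the count with age in wild type (2860) was 842 to 3697 and in KPAW (2259) 734 to 2171 when 1 array was left out; the KPAW count was 1343 as deposited and 604 with the groups alone. KPAW against wild type at 1 month gave 4 probe sets over all, and 99 as deposited, 2 with the pseudocount at the 5th percentile, 2 with the filter at the 50th percentile, 19 with the groups alone and 0 to 560 when 1 array was left out (560 without KPAW II at 1 month). At 5 days the count of 0 became 0 to 27 (27 without KPAW II at 5 days), and for the change with age it became 36 as deposited and 0 to 305 (305 without KPAW II at 1 month). Without scaling, the median of all probe sets moved to 0.44 (log2) for age in wild type, 0.21 over both kinds of eye, 0.18 for KPAW at 5 days and -0.26 at 1 month; the share of called probe sets that were higher was 90.8% as deposited and 37.4% with median scaling in wild type, against 48.3%, 81.1% as deposited over both kinds of eye, against 47.4%, and 65.0% as deposited in KPAW, against 47.4%. The enzymes' own medians in wild type were 0.99 as deposited and 0.41 with median scaling, against 0.50. The age change of Scarb1 in KPAW, which was not called with all arrays, ran from -0.80 to 0.60 when 1 array was left out, and was called, with its sign turned, without KPAW I at 1 month (0.60). The numerals I and II were taken to share only a number, since deviations of same-numbered arrays correlated at -0.02 to 0.31 and not every pair lay above 0.1. With them as a replicate block, 2 enzyme probe sets were called in wild type, 4 in KPAW and 9 over both kinds of eye, where Sqle was then called (limma adjusted p = 0.0489), and 13 probe sets over all at 1 month between KPAW and wild type. Leaving out an array leaves a group with 1, which is then assumed to vary like the others. Precision was limited by 2 arrays a group, and the low signals of Lss, Idi1 1423804_a_at and Fdft1 1438918_at lay near the limit for testing.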
